A study of Mus musculus with 8 samples.

Results

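A set of 9 genes, known mainly from neurons and synapses or closely related to such genes, was followed in Lewis lung carcinoma (LLC) tumors. They are 9 of the 55487 genes in the count table: Lrrn3, Nefm, Gap43, Pnck, Ap3b2, Dtna and Fam131b, which were picked because their levels were much lower in Ago2 knock-out than in wild-type tumors, and the relatives Nefl and Ap3b1, which were added for family context. LLC is a mouse lung cancer line, and its cells were implanted subcutaneously in C57BL/6J hosts. RNA was sequenced from 4 tumors of wild-type LLC cells and 4 tumors of LLC cells labelled Ago2 knock-out (ΔAgo2), all taken at day 12 and all carrying batch label 1. Hosts were female mice, bought at 6 to 8 weeks of age, and no drug is named for these samples. The mice themselves were not knock-outs, so host cells in every tumor kept Ago2. The ΔAgo2 line was made with a lentiviral CRISPR guide and single-cell sorting, and 1 clone was engrafted, while the clonality of the wild-type line was not stated. Loss of Ago2 and any other property of that clone cannot be told apart in these samples.

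Neurons extend long axons, which are stiffened by neurofilaments, guided by growth cones and linked to their partners by adhesion proteins. They also use brain versions of proteins that most cells have, such as the vesicle coat complex AP-3, which sorts cargo from endosomes. Carcinomas can transcribe such genes without containing neurons, and tumors can also hold nerve fibers, whose cell bodies and most of their mRNA lie outside the tumor. Ago2 encodes Argonaute 2, which binds microRNAs and other small RNAs and silences or cuts the transcripts they match.

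Levels are given as CPM, which are counts scaled to a common library total after TMM normalization. Library totals ran from 7903288 counts in wild-type tumor 4 to 268564145 in ΔAgo2 tumor 4, so 3 counts, the limit that a count of 0 allows, correspond to 0.430 CPM in the shallowest library and 0.0105 CPM in the deepest. Only counting error enters these limits. Ago2 mRNA stood at 154 ± 28.9 CPM in wild-type and 240 ± 99.2 CPM in ΔAgo2 tumors (SD, n = 4 each), and edgeR's quasi-likelihood test, adjusted over all genes by Benjamini-Hochberg, gave a log2 fold change of 0.64 ± 0.30 (SE, adjusted p = 0.205). The transcript therefore did not separate the groups, and a small CRISPR edit can leave mRNA in place. For the knock-out itself the paper refers to a western blot of Ago2 protein in wild-type and ΔAgo2 LLC cells, and these RNA data hold no protein values. The labelled carcinoma identity was only partly visible. Krt8 and Krt18, keratins of simple epithelia, were abundant at means of 315 and 479 CPM in wild-type tumors. Other epithelial markers were low there, with Krt7, Epcam, Muc1, Cdh1 and Krt19 at means of 1.23, 1.23, 1.31, 4.21 and 5.52 CPM. The lung markers Nkx2-1, Sftpb and Scgb1a1 were at 0 in all wild-type libraries. The data are bulk RNA, so fewer cells of a type and less RNA per cell cannot be told apart.

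Of the 9 genes, 8 were lower in every ΔAgo2 tumor than in any wild-type tumor, and Ap3b1 was not. In the whole table, groups did not overlap in this direction for 1342 of the 16061 genes tested (8.36%). All 7 picked genes and Nefl also passed an adjusted p of 0.05 in the lower direction, which 2.12% of all genes tested did, while 1.36% passed in the higher direction and 3.49% in either. Nothing follows from these counts for the 7 picked genes, since the same contrast chose them, and no p is given for them. Nefl entered the test only through its wild-type libraries and shares exons with Nefm, so its call is no support either. For the gene lists further on, the background before adjustment is 26.7% of all genes tested at p under 0.05 (13.0% lower, 13.7% higher), while DESeq2 called 13.1% of the 17312 genes it tested and limma voom 27.9%. The median log2 fold change was −4.28 over the 7 picked genes and 0.04 over all genes tested. All 9 genes passed the filter on low counts, which asks for at least 0.200 CPM in 4 libraries, and all 4 wild-type libraries reached that level for each gene. Of the ΔAgo2 libraries, 0 reached it for Lrrn3 and Nefl, 1 for Gap43, 2 for Pnck, and 3 for Nefm, Ap3b2 and Dtna. Those genes would not have passed on the ΔAgo2 libraries alone, whereas Fam131b and Ap3b1, with 4, would have. Fam131b, at −2.37, is the picked gene nearest to 0, and Prph, a filament relative that was not picked, had −1.96.

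**Figure D1:**
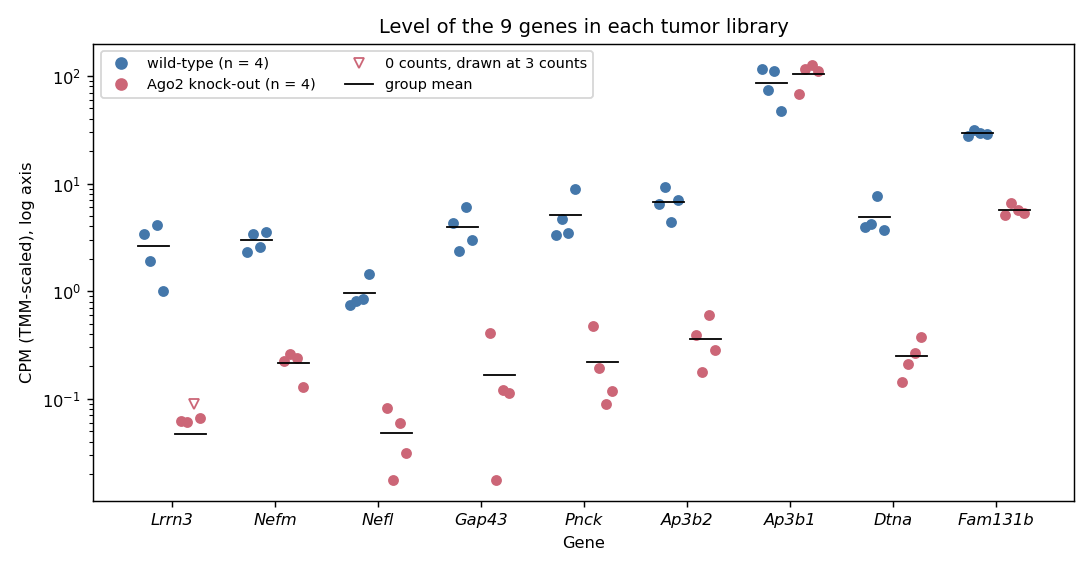
CPM of each gene (log axis) in the 4 wild-type (blue) and 4 ΔAgo2 (red) tumors, with group means as black bars; the open triangle marks Lrrn3 in ΔAgo2 tumor 3, which had 0 counts and is drawn at its limit of 3 counts. In 8 genes the red points lie below all blue points, and in Ap3b1 they overlap.

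Lrrn3 encodes a membrane protein with leucine-rich repeats on its outer face, found on developing and adult neurons. In wild-type tumors 1 to 4 it stood at 3.43, 1.91, 4.16 and 1.00 CPM, and in ΔAgo2 tumors 1 to 4 at 0.0615, 0.0614, 0 and 0.0665 CPM. The lowest wild-type value was 15.1 times the highest ΔAgo2 value. The wild-type values themselves spread over a 4.15-fold range, with the lowest from only 7 counts in the shallowest library (exact 95% interval 0.403 to 2.07 CPM, counting error only). ΔAgo2 tumor 3 had no read for this gene, which allows up to 0.0895 CPM, above the values of the other ΔAgo2 tumors. Its fitted log2 fold change was −5.59 ± 0.64 (SE), and it rests on 0 to 19 counts per ΔAgo2 library. Lrrn3 lies at chr12:41451668-41486431 on the minus strand of GRCm38, inside an intron of Immp2l, a mitochondrial peptidase gene on the other strand. Immp2l shares no exonic base with it and had a log2 fold change of −0.56 (adjusted p = 0.317, edgeR). The relatives Lrrn1, Lrrn2 and Lrrn4 were too low to be tested, with summed levels of 0.131 to 1.72 CPM in wild-type and 0.114 to 0.328 CPM in ΔAgo2 tumors. DESeq2, which applies another filter, called 1 of these 3 lower.

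Nefm and Nefl encode the medium and light neurofilament chains, which assemble together in axons. Nefm measured 2.32, 3.38, 2.56 and 3.58 CPM in wild-type tumors and at 0.226, 0.263, 0.239 and 0.130 CPM in ΔAgo2 tumors. Wild-type tumors thus agreed within a 1.54-fold range and lay far above all ΔAgo2 tumors, with means of 2.96 ± 0.614 and 0.214 ± 0.0586 CPM (SD, n = 4 each) and a log2 fold change of −3.80 ± 0.40 (SE). Nefl, which was not picked on its own level, measured 0.750, 0.810, 0.841 and 1.43 CPM in wild-type tumors. It was at 0.0821, 0.0175, 0.0597 and 0.0315 CPM in ΔAgo2 tumors, from 2 to 9 counts each. Its lowest wild-type value was 9.13 times its highest ΔAgo2 value, and its log2 fold change was −4.46 ± 0.55 (SE). It was too low to be tested in libraries thinned to the shallowest one or with at least 10 counts required in each library.

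The neurofilament genes are neighbours and overlap. Nefm lies at chr14:68082590-68124846 on the minus strand and Nefl at chr14:68083863-68089095 on the plus strand, and the annotation gives them 1108 shared exonic bases, 32.8% of Nefl and 19.2% of Nefm. The library kit was stranded, but the strand setting of the counting was not stated, so reads in that stretch may belong to either gene. In TPM, which divides by gene length, Nefm made up 64.6, 71.1, 64.0 and 59.5% of the summed Nefm and Nefl level in wild-type tumors. The share was 64.3, 89.5, 68.4 and 72.7% in ΔAgo2 tumors, where the sum itself averaged only 0.158 TPM against 2.06 TPM. The shares of the 2 groups overlapped.

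Other neuronal intermediate filaments were less uniform. Nefh, the heavy neurofilament chain, and Ina, alpha-internexin, were too low to be tested, at means under 0.05 CPM in both groups. Prph, the peripherin of peripheral neurons, measured 3.62, 5.91, 7.34 and 12.2 CPM in wild-type and at 2.11, 2.22, 1.55 and 1.45 CPM in ΔAgo2 tumors. It was called lower (log2 fold change −1.96 ± 0.39, adjusted p = 0.0262), and the groups did not overlap. This call was lost without wild-type tumor 2 or without ΔAgo2 tumor 2, 3 or 4, where the adjusted p (edgeR) was 0.0644, 0.0614, 0.0789 and 0.111. It was also lost with a correction for GC content, which brought the log2 fold change to −1.28 (adjusted p = 0.0565, edgeR). Nes, the progenitor filament nestin, was abundant and not called, at 132 ± 28.9 against 144 ± 24.1 CPM (SD, n = 4 each).

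Gap43 encodes a growth-cone protein of extending and regenerating axons. It measured 4.33, 2.38, 6.03 and 3.01 CPM in wild-type tumors and at 0.410, 0.0175, 0.119 and 0.112 CPM in ΔAgo2 tumors. The ΔAgo2 values spread over a 23.4-fold range, the widest of the 8 genes with counts in every library, with tumor 1 the highest and tumor 2 at 2 counts. Even so, the lowest wild-type value was 5.81 times the highest ΔAgo2 value, and the log2 fold change was −4.70 ± 0.75 (SE). It was −5.62 without ΔAgo2 tumor 1 and −4.26 without ΔAgo2 tumor 2, and Gap43 no longer passed the threshold without ΔAgo2 tumor 4, at −4.47. The gene lies at chr16:42248442-42340651 on the minus strand and shares no 50-base stretch with another annotated gene.

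Among 16 other genes of axon growth, 11 were tested and none passed in either direction by edgeR. At an unadjusted p under 0.05 there were 2 higher and 0 lower (26.7% of all genes in either direction), limma voom called 1 higher and 3 lower (27.9% of all genes), and DESeq2 called none. The abundant members Dpysl3, a collapsin response mediator, and Marcksl1, a membrane-linked actin regulator, stood at 352 ± 94.3 and 266 ± 69.1 CPM in wild-type and at 380 ± 90.3 and 180 ± 82.7 CPM in ΔAgo2 tumors (SD, n = 4 each). Their log2 fold changes were 0.11 and −0.56. Basp1, which like Gap43 is a major growth-cone membrane protein, had −0.07 (adjusted p = 0.862, edgeR). Stmn2, a microtubule regulator of growing axons, was near the limit of detection in both groups, at 0.392 and 0.320 CPM on average.

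Pnck encodes a brain calcium/calmodulin-dependent kinase of the CaM kinase I family. It measured 3.298, 4.67, 3.45 and 8.89 CPM in wild-type and at 0.472, 0.193, 0.0895 and 0.119 CPM in ΔAgo2 tumors. Wild-type tumor 4, the shallowest library, was the highest and ΔAgo2 tumor 1 the highest of its group, and the lowest wild-type value was still 6.99 times the highest ΔAgo2 value. The log2 fold change was −4.54 ± 0.59 (SE). Pnck is at chrX:73655994-73660117 on the minus strand. Of 11 other CaM kinase genes, 9 were tested and none was called by edgeR, with a median log2 fold change of −0.18. Before adjustment, 2 of them were higher and 0 lower at p under 0.05, against 26.7% of all genes. DESeq2 called 1 higher, and limma voom 2 higher and 1 lower. Camk1, the founding kinase of the family, stood at 120 ± 19.96 against 91.2 ± 26.1 CPM (SD, n = 4 each; adjusted p = 0.280, edgeR), and Camk2d at 53.8 ± 6.41 against 98.7 ± 27.2 CPM (adjusted p = 0.0591, edgeR).

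Ap3b2 and Ap3b1 encode alternative large beta subunits of AP-3: the first is used in the neuronal form of the complex, the second in nearly all cells. Ap3b2 measured 6.41, 9.20, 4.35 and 7.02 CPM in wild-type and at 0.390, 0.175, 0.597 and 0.284 CPM in ΔAgo2 tumors. The groups were 7.29-fold apart at their nearest values, and the log2 fold change was −4.28 ± 0.45 (SE). Ap3b1 measured 116, 73.8, 110 and 46.9 CPM in wild-type and at 67.6, 116, 127 and 111 CPM in ΔAgo2 tumors, so the groups overlapped. Its log2 fold change was 0.28 ± 0.30 (SE, adjusted p = 0.569, edgeR), and it stayed between 0.08 and 0.55 under all alternatives, with an adjusted p of 0.295 to 0.891. These genes share no 50-base stretch, so reads of one should not be counted for the other. Gm45906, annotated on the same strand as Ap3b2, overlaps 352 of its exonic bases (5.6%), and no level is given for it here.

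Per gene length, Ap3b1 was the larger of the pair in every tumor. Ap3b2 made up 3.17, 6.88, 2.28 and 8.14% of their summed TPM in wild-type tumors and 0.336, 0.0852, 0.271 and 0.157% in ΔAgo2 tumors. The shares did not overlap, and because Ap3b1 enters them too, wild-type tumor 4, with the lowest Ap3b1 level, had the highest share. The other AP-3 subunits and beta adaptins (8 tested of 8) gave no call in either direction by edgeR, with a median log2 fold change of 0.18. Before adjustment at p under 0.05, and by DESeq2 and limma voom, 1 was lower and 0 higher. Ap3m2, the mu subunit used in the neuronal form, stood at 13.5 ± 3.07 against 15.9 ± 1.52 CPM (SD, n = 4 each; log2 fold change 0.22, adjusted p = 0.538, edgeR). Ap3d1, the delta subunit common to both forms, stood at 176 ± 32.6 against 164 ± 24.6 CPM (adjusted p = 0.759, edgeR).

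**Figure D2:**
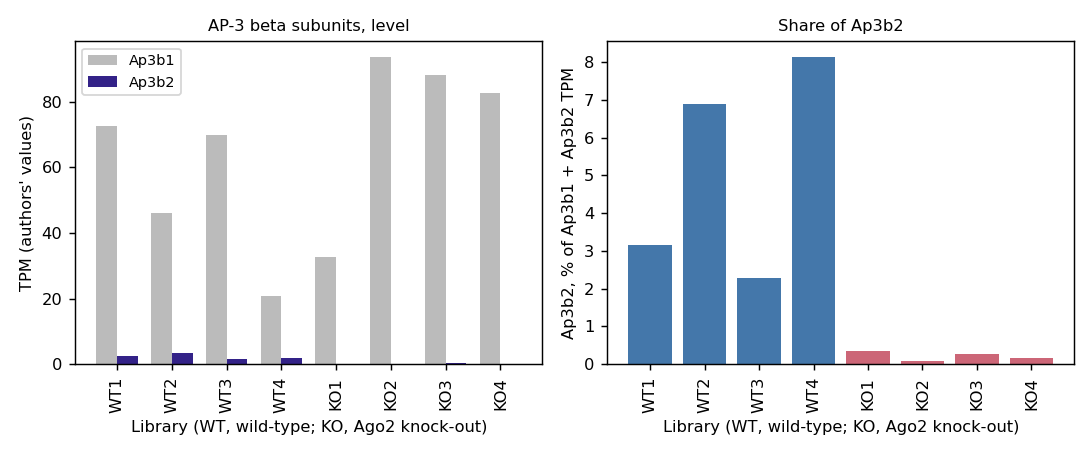
Left, TPM of Ap3b1 (grey) and Ap3b2 (dark blue) in each library; right, Ap3b2 as a percentage of their summed TPM, wild-type in blue and ΔAgo2 in red. The share was 2.28 to 8.14% in wild-type tumors and 0.0852 to 0.336% in ΔAgo2 tumors.

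The 250 bases before the start of Ap3b2, of its relative Ap3b1 and of Fam131b are shown 5′ to 3′ because the first and last were among the genes that were low together and the second was not. Of the 9 genes, 3 had a window in the RefSeq promoter table (GRCm38.p6). Ap3b2 is at chr7:81493926-81494175 (minus strand), Ap3b1 at chr13:94358710-94358959 (plus strand) and Fam131b at chr6:42324641-42324890 (minus strand). Capitals mark matches on either strand to GGGCGG (GC box) or GGACAG (the right part of the RE1 element bound by the neuronal gene repressor REST).
Ap3b2: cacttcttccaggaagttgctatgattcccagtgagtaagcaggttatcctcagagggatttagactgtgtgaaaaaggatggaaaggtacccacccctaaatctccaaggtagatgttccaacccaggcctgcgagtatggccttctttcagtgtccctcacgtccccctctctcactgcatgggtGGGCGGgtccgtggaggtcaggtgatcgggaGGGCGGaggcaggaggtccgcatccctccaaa
Ap3b1: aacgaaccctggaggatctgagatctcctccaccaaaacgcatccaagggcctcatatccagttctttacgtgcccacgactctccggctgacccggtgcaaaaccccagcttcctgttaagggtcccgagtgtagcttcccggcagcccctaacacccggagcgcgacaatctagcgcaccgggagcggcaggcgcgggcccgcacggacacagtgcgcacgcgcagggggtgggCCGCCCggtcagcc
Fam131b: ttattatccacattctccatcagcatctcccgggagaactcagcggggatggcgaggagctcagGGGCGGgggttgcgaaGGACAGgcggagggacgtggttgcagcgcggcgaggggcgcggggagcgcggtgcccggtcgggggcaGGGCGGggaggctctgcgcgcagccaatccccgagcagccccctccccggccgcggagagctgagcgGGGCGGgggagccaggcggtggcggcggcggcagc
GGGCGG occurred 2 times in the Ap3b2 window, 1 time in the Ap3b1 window and 3 times in the Fam131b window, and at least once in 32.7% of all 32851 windows of this length. GGACAG occurred 1 time, 170 bases before the start of Fam131b, and in 18.7% of all windows. CAGCACC (the left part of RE1, in 5.73% of windows), TGACGTCA (the cyclic AMP response element, 1.55%) and TATAAA (the TATA box, 12.4%) were also searched on both strands, do not overlap the other motifs here, and were not in these windows. GC content was 55.2% before Ap3b2, 65.2% before Ap3b1 and 74.4% before Fam131b, against a median of 52.4% over all windows.

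Fam131b, a gene most highly expressed in brain, was the most abundant and the most even of the picked genes. It measured 27.5, 31.2, 29.6 and 28.8 CPM in wild-type and at 5.09, 6.55, 5.73 and 5.36 CPM in ΔAgo2 tumors. The coefficient of variation was 5.26% in wild-type and 11.2% in ΔAgo2 tumors, from 192 counts or more in each library, and the means of 29.3 ± 1.54 and 5.68 ± 0.638 CPM (SD, n = 4 each) were 5.16-fold apart. Its log2 fold change was −2.37 ± 0.20 (SE), the smallest in size among the picked genes. Per length it was also the highest of the 7 in every tumor, at a mean of 18.9 TPM in wild-type and 4.35 TPM in ΔAgo2 tumors. Fam131b lies at chr6:42315312-42324643 on the minus strand, and 10.8% of its exonic bases (445) overlap Clcn1, a muscle chloride channel gene on the other strand. Clcn1 stood at 2.15 ± 0.271 against 1.73 ± 0.594 CPM (SD, n = 4 each; adjusted p = 0.563, edgeR), well under Fam131b. The relative Fam131a had a log2 fold change of −0.91 (adjusted p = 0.257, edgeR), and Fam131c was too low to be tested.

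Dtna encodes alpha-dystrobrevin, a cytoplasmic partner of dystrophin at synapses and in muscle. It measured 3.95, 4.20, 7.71 and 3.73 CPM in wild-type and at 0.144, 0.211, 0.269 and 0.375 CPM in ΔAgo2 tumors. Wild-type tumor 3 was well above the other wild-type tumors, and the lowest wild-type value was 9.95 times the highest ΔAgo2 value. The log2 fold change was −4.26 ± 0.44 (SE), and −3.94 without wild-type tumor 3. Dtna lies at chr18:23415135-23659715 on the plus strand, and 0.5% of its exonic bases overlap the antisense gene Gm47898, which had 0 counts in every library.

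The partners of Dtna were mixed. Of 17 other genes of the dystrophin complex, 14 were tested, with a median log2 fold change of −0.03. By edgeR 2 were called lower and none higher, against 2.12% lower and 1.36% higher over all genes tested. At an unadjusted p under 0.05, 4 were lower and 2 higher, where 26.7% of all genes passed. DESeq2 and limma voom each called 3 lower and 2 higher, where they called 13.1 and 27.9% of all genes. Sntb1, a syntrophin adapter that binds dystrobrevin, measured 2.32, 2.10, 2.77 and 2.58 CPM in wild-type and at 0.328, 0.588, 0.328 and 0.725 CPM in ΔAgo2 tumors. Its log2 fold change was −2.27 ± 0.38 (SE, adjusted p = 0.0124, edgeR), and the adjusted p was 0.0515 without ΔAgo2 tumor 3. Sgca, the muscle sarcoglycan alpha, had −2.98 (adjusted p = 0.0475, edgeR), with wild-type tumor 3 at 3.78 CPM and the rest of that group at 0.487 to 1.14 CPM, and −1.98 without that tumor (adjusted p = 0.0701). Without any 1 of wild-type tumors 2 and 4 or ΔAgo2 tumors 2, 3 and 4, the Sgca call was also lost, with adjusted p-values (edgeR) of 0.106, 0.0713, 0.126, 0.108 and 0.137, as it was with the GC correction (0.0786) and with scaling to total counts (0.0562). Dag1, the dystroglycan core, and Utrn, the widespread relative of dystrophin, had 0.23 and 1.11 (adjusted p = 0.605 and 0.0955, edgeR).

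**Figure D3:**
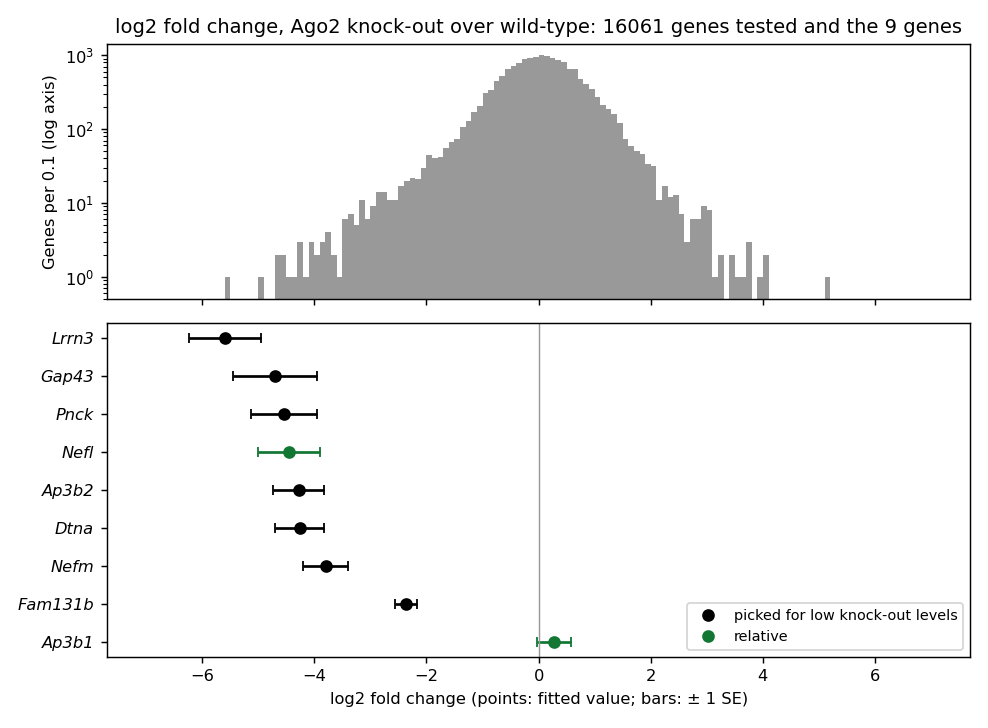
Top, histogram of fitted log2 fold changes (ΔAgo2 over wild-type) of all 16061 genes tested, with a log axis for the number of genes; bottom, the 9 genes with ± 1 SE, picked genes in black and relatives in green. The picked genes run from −5.59 (Lrrn3) to −2.37 (Fam131b), Nefl is at −4.46 and Ap3b1 at 0.28.

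Because depth differed so widely, the counts are also given after all libraries were thinned to the total of the shallowest one. The ΔAgo2 tumors then held 0, 1, 0 and 0 counts of Lrrn3 and 1, 0, 0 and 0 counts of Gap43. The wild-type tumors held 24, 19, 36 and 7 counts of Lrrn3 and 41, 19, 49 and 21 counts of Gap43. Fam131b kept 219, 223, 251 and 201 counts in wild-type against 32, 54, 43 and 53 counts in ΔAgo2 tumors. These counts describe the same libraries that chose the genes, with only the total matched.

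Other neuronal genes were compared to see how far the difference reached. Over all lists of relatives, 46 of 62 genes were tested, with a median log2 fold change of −0.07. By edgeR 3 were called lower (6.52%, against 2.12% of all genes tested) and none higher (against 1.36%). At an unadjusted p under 0.05, 6 were lower and 6 higher (26.1%, against 26.7% of all genes tested). DESeq2 called 6 lower and 3 higher and limma voom 9 lower and 5 higher, where they called 13.1 and 27.9% of all genes. Of 45 pan-neuronal, synaptic release and neuroendocrine genes, 20 were tested and none was called in either direction by edgeR, with a median log2 fold change of −0.54 against 0.04 over all genes tested. Of these 20 genes, 16 had a fold change below 0. At an unadjusted p under 0.05, 5 of the 20 were lower and 1 higher, where 13.0% of all genes tested were lower and 13.7% higher. In either direction that is 30% of the 20 against 26.7% of all genes tested. DESeq2 called 0 lower and 1 higher. From limma voom there were 9 lower and 2 higher, where it called 27.9% of all 16061 genes tested, 2083 lower and 2393 higher.

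Single neuronal genes show the range, which ran in log2 fold change from −1.71 for Mapt to 1.84 for Map2 (adjusted p = 0.143 and 0.0876, edgeR). Map2 averaged 0.288 ± 0.249 CPM in wild-type and 1.23 ± 0.408 CPM in ΔAgo2 tumors (SD, n = 4 each), and its groups did not overlap. Over these lists 4 tested genes had a fold change above 0 and 16 below, and the tested genes described next were all lower on average. Among pan-neuronal genes, Thy1, a surface glycoprotein of neurons and T cells, stood at 55.7 ± 10.6 against 39.6 ± 21.3 CPM, and Celf4, a neuronal RNA-binding protein, at 26.3 ± 5.19 against 17.2 ± 2.94 CPM (SD, n = 4 each). Tubb3, the neuronal beta-tubulin, had a log2 fold change of −0.48 (adjusted p = 0.243, edgeR). Among synaptic release genes, Vamp2, the vesicle SNARE, stood at 100 ± 46.8 against 56.0 ± 7.51 CPM and Syn1, synapsin, at 44.1 ± 7.93 against 27.9 ± 6.31 CPM. Their adjusted p-values (edgeR) were 0.129 and 0.111. Defining neuronal genes were at or near 0: Elavl4 had no count in any library, Elavl2 and Sv2b had none in wild-type tumors, and Rbfox3 and Syt1 averaged 0.233 and 0.0409 CPM there. The neuroendocrine list had 1 tested gene of 10, Chga, the granule protein chromogranin A, at 2.76 ± 1.13 against 1.93 ± 0.677 CPM, and Neurod1, a transcription factor of neuroendocrine cells, had no count in any library.

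**Figure D4:**
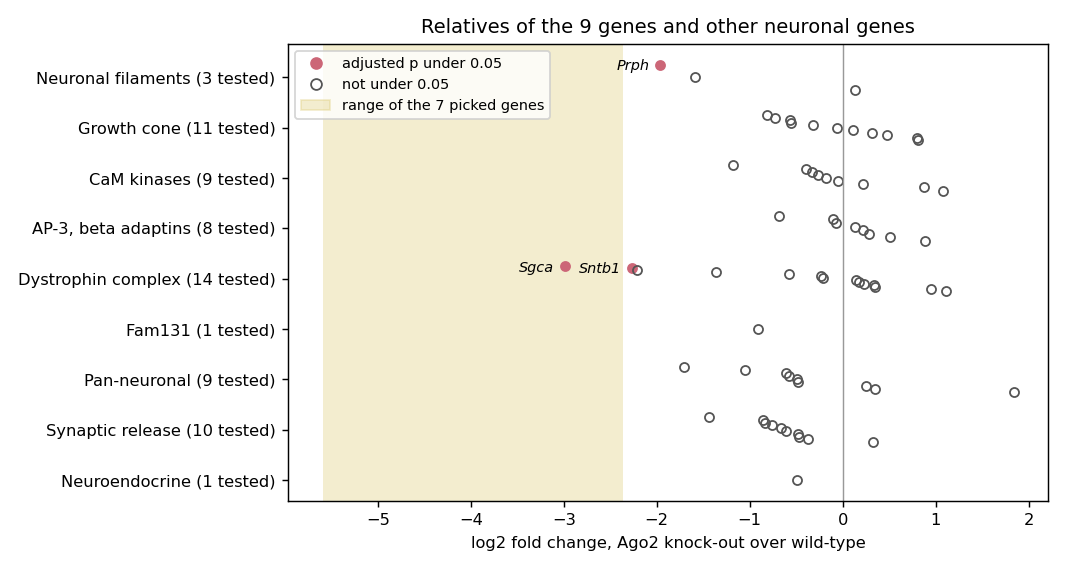
Fitted log2 fold change of each tested gene in 6 lists of relatives and 3 neuronal lists, with genes past an adjusted p of 0.05 filled in red and named, and the range of the 7 picked genes shaded. Prph, Sntb1 and Sgca are the called genes, and most points lie between −1 and 1.

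Markers of other cells that could carry such transcripts were read in the same libraries. Over all genes tested, edgeR called 2.12% lower and 1.36% higher, and 13.0% were lower and 13.7% higher at an unadjusted p under 0.05. DESeq2 called 13.1% of its genes and limma voom 27.9%, in either direction. Of 15 Schwann cell markers, 10 were tested and none was called by edgeR (2 higher and 0 lower before adjustment, at p under 0.05, and 1 higher by DESeq2 and 2 by limma voom). Their summed level was 116 to 157.6 CPM in wild-type and 143 to 165 CPM in ΔAgo2 tumors, led by Mbp and Pmp22, which many cells express, while Sox10 averaged 0.374 and 0.212 CPM. Of 14 peripheral neuron markers, 4 were tested and 1 was called, Scn9a, a sodium channel of sensory neurons, at 2.03 ± 0.116 against 9.62 ± 6.37 CPM (SD, n = 4 each; log2 fold change 2.25, adjusted p = 0.0311, edgeR). The Scn9a call was lost without wild-type tumor 2 or 4 or ΔAgo2 tumor 2 or 4 (adjusted p = 0.1, 0.0703, 0.0884 and 0.101, edgeR). With the GC correction it was lost too, at a log2 fold change of 1.57 (adjusted p = 0.0652, edgeR). The summed level of that list was 4.87 to 5.72 CPM in wild-type and 6.93 to 22.6 CPM in ΔAgo2 tumors with Scn9a, and 2.87 to 3.53 CPM and 3.32 to 5.04 CPM without it, so that the groups overlapped. Dbh was at 0 in every library. The part of nerve cells in the low values of the 8 genes was not tested.

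Skeletal muscle markers all had fold changes below 0. Their summed level was 258, 338, 3592 and 477 CPM in wild-type and 195, 51.0, 209 and 165 CPM in ΔAgo2 tumors, so that wild-type tumor 3 stood apart. Dtna, Lrrn3 and Gap43 were also highest in that tumor. Of the other picked genes, Nefm and Pnck were highest in wild-type tumor 4, and Ap3b2 and Fam131b in wild-type tumor 2. Ap3b2 had its lowest wild-type value, 4.35 CPM, in wild-type tumor 3. All 10 muscle markers were tested, with a median of −2.92, and all 10 were lower at an unadjusted p under 0.05, against 13.0% of all genes tested. Of the 10, edgeR called 1 lower (against 2.12% of all genes), Myh2, a fast muscle myosin, at −2.84 (adjusted p = 0.0305, edgeR). DESeq2 called 3 lower and limma voom 2, where they called 13.1 and 27.9% of all genes in either direction. The Myh2 call was lost without wild-type tumor 2 or without ΔAgo2 tumor 2, 3 or 4 (adjusted p = 0.0679, 0.0893, 0.0515 and 0.0923, edgeR). Acta1, the muscle actin, stood at 488 against 60.8 CPM on average (adjusted p = 0.063). In the other wild-type tumors the muscle sum, at 258 to 477 CPM, was also above that of each ΔAgo2 tumor. The part of muscle RNA in the values of Dtna, Lrrn3 and Gap43 was not tested.

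The remaining lists held markers of other tumor cells and REST. Beside them, edgeR called 2.12% of all genes tested lower and 1.36% higher. At an unadjusted p under 0.05, 13.0% of all genes were lower and 13.7% higher. DESeq2 called 13.1% of its genes and limma voom 27.9%, in either direction. Of 8 fibroblast markers 1 was called lower, Fap (log2 fold change −1.52, adjusted p = 0.0329, edgeR), and the list had 5 lower and 1 higher at an unadjusted p under 0.05, while DESeq2 called 3 lower and limma voom 3 lower and 1 higher. Its summed level was 4866 to 7199 CPM in wild-type and 2217 to 4595 CPM in ΔAgo2 tumors. Most of that sum was Col3a1, at means of 4759 and 2931 CPM, which was not called (adjusted p = 0.182, edgeR). Of the 8, 6 had a log2 fold change below 0, while Dcn (243 against 272 CPM) and Pdgfra (79.8 against 128 CPM) were higher on average in ΔAgo2 tumors. Of 8 endothelial markers 1 was called lower, Vwf (−1.09, adjusted p = 0.0466, edgeR). Both calls were lost in several leave-out fits: without any 1 of wild-type tumors 2 and 4 or ΔAgo2 tumors 2, 3 and 4, Fap had an adjusted p (edgeR) of 0.0526 to 0.121 and Vwf of 0.104 to 0.148, and Vwf had 0.0506 without wild-type tumor 3. With the GC correction Vwf had −0.67 (adjusted p = 0.101, edgeR), and its call was also lost with total counts (0.0666) and in the thinned libraries (0.0658). By edgeR none of the tested melanocyte (2), leukocyte (7) or epithelial (7) markers was called. At an unadjusted p under 0.05 these lists had 1, 1 and 2 higher and 0 lower, DESeq2 called the same numbers, and limma voom called 1, 1 and 2 higher and 0, 1 and 1 lower. REST, the repressor that keeps many neuronal genes silent outside neurons, stood at 24.7 ± 4.24 against 43.4 ± 13.8 CPM (SD, n = 4 each; log2 fold change 0.81, adjusted p = 0.0958, edgeR). None of REST and its cofactors (10 tested) was called by edgeR, with 2 lower and 1 higher at an unadjusted p under 0.05, 1 lower and 1 higher by DESeq2, and 1 lower and 2 higher by limma voom.

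**Figure D5:**
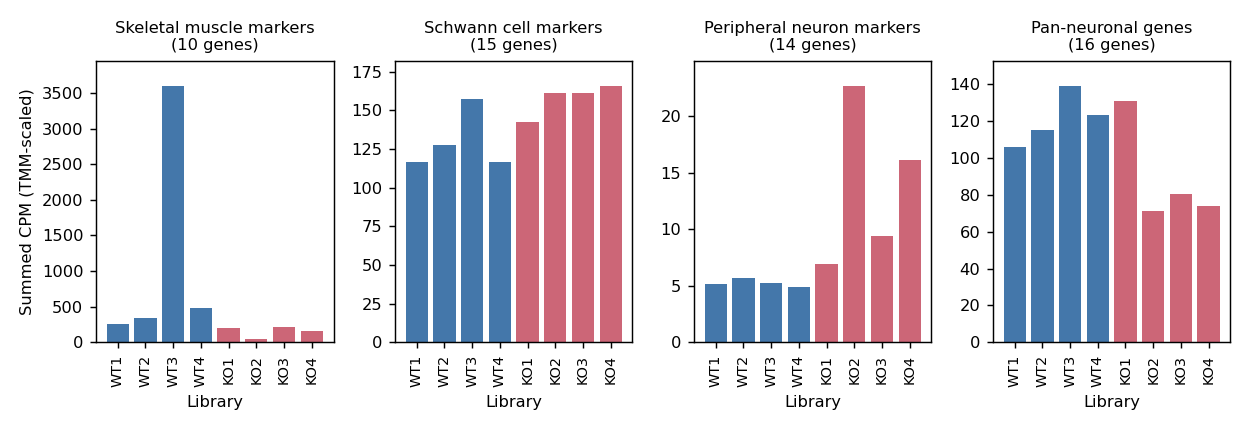
Summed CPM of 4 marker lists in each library, wild-type (WT) in blue and ΔAgo2 (KO) in red; each panel has its own axis from 0. Skeletal muscle markers peak at 3592 CPM in wild-type tumor 3, Schwann cell markers run from 116 to 165 CPM, and the peripheral neuron sum includes Scn9a, without which the groups overlap.

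The genes beside the 9 on their chromosomes were also read. Of 48 distinct neighbours, the 3 tested genes on each side, 4 were called lower (8.33%, against 2.12% of all genes tested) and 1 higher (2.08%, against 1.36%), with a median log2 fold change of 0.18. The closest called neighbour was Cpeb1, a regulator of mRNA translation in oocytes and neurons, 4.93 kb from Ap3b2, at 2.68 against 0.738 CPM on average (log2 fold change −1.86, adjusted p = 0.0113, edgeR, and 0.0524 and 0.0651 without ΔAgo2 tumor 3 or 4, and 0.074 in the thinned libraries). Stc1, a secreted glycoprotein hormone, 904 kb from Nefm, fell from 56.3 to 8.02 CPM (−2.81, adjusted p = 0.00215, edgeR). Nol4, a neuronal nuclear protein 373 kb from Dtna, had −2.14 (adjusted p = 0.0333, edgeR), and Bgn, the matrix proteoglycan biglycan 160 kb from Pnck, had −1.29 (adjusted p = 0.0299, edgeR). Casp2, a caspase gene 32.8 kb from Fam131b, was the one called higher (0.87, adjusted p = 0.0444, edgeR). Stc1 stayed called without any 1 tumor. Without wild-type tumor 2 or ΔAgo2 tumor 2, 3 or 4, the adjusted p (edgeR) was 0.0725 to 0.1 for Nol4, 0.072 to 0.123 for Bgn and 0.0883 to 0.147 for Casp2. It was also over the threshold without wild-type tumor 1 for Nol4 and Casp2 (0.0541 and 0.0674), and without wild-type tumor 4 for Bgn and Casp2 (0.0584 and 0.0953). Scaling to total counts gave 0.0516 for Nol4 and 0.0613 for Casp2.

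The 5 genes whose profile over the 8 libraries was closest to the mean profile of the 7 picked genes were Adra1b, Grb14, Plac1, Fjx1 and Lingo3, among 14343 genes with a mean of at least 0.5 CPM. Closeness was the root mean square difference of log2 CPM after each gene was centred on its own mean, and it ran from 0.47 to 0.63 for these 5. Adra1b, an alpha-1 adrenergic receptor, averaged 1.38 ± 0.319 against 0.0890 ± 0.0199 CPM, and Plac1, a gene of placenta and tumors, 9.77 ± 1.93 against 1.15 ± 0.220 CPM (SD, n = 4 each). Nefl was closer to that mean profile than any gene that is not among the 9 (0.41), and 9665 genes were closer than Ap3b1. Nefm, with which Nefl shares exons and possibly reads, enters that mean, so the closeness of Nefl may be partly built in. The mean profile also carries the contrast that chose the 7 genes, and Nefl passed the filter only through its wild-type libraries. Its rank is therefore no support. Among the picked genes, which enter the mean themselves, Fam131b was the farthest at 0.91, with its smaller difference, and Nefm the closest at 0.44.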

How the data were processed

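RNA from 8 tumors was sequenced as paired 100-base reads from a stranded mRNA kit, with 50 M reads targeted per library. The authors deposited raw gene counts (whole, unnormalized numbers) and TPM values, which divide counts by gene length and scale each library to the same total. The study's methods, written for cultured cells, state alignment to ribosomal RNA and then mm10 and counting with featureCounts; the submitters' notes name STAR. Annotation release and strand setting are not given in the sources used here. The cell culture experiments were not analysed here.

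Identifiers were matched to GENCODE M21 (GRCm38, the build behind mm10): 55094 of 55487 matched with their version, 300 (Ap3b2 among them) without it, and 93 did not match. The count analysis used edgeR 4.0.16 in R 4.3.3, with filterByExpr (at least 0.200 CPM in 4 libraries) and TMM. A quasi-likelihood test without covariates compared the genotypes, and p-values were adjusted by Benjamini-Hochberg over the 16061 genes that passed the filter, with calls at 0.05. Log2 CPM used a prior count of 2. Groups and replicate numbers came from the sample titles. Nothing states how libraries were prepared in runs, and the p-values measure the spread between these tumors.

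The members and the 19 gene lists (relatives of each member; pan-neuronal, synaptic release and neuroendocrine genes; markers of peripheral neurons, Schwann cells, melanocytes, skeletal muscle, epithelium, leukocytes, fibroblasts and endothelium; REST and its cofactors), written from general knowledge, were chosen with earlier results of these data known. Genes named were the 9 members, Ago2, list genes past the threshold or otherwise 2 to 4 of the most abundant of a list, called neighbours among the 3 tested genes on each side of a member, genes overlapping a member, and the 5 genes of closest profile. Ap2b1, the most abundant of the AP-3 and beta adaptin genes, was not described. Overlapping genes without a shared exonic base were left out, except Immp2l. Chosen after their values were seen were Nefh, Ina, Stmn2, Basp1, Ap3m2, Camk2d, Tubb3, Map2, Mapt, Dag1, Utrn, Sox10, the low epithelial markers, the markers at or near 0 and the fibroblast and endothelial genes.

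Alternatives were DESeq2 1.42.0 (Wald test, and its size factors), total counts, upper quartile scaling, a minimum of 10 counts in each library or no minimum, limma 3.58.1 with voom and quality weights, the replicate number as a block, a GC correction, both together, thinning to the shallowest library, limma on TPM (pseudocount 1 or 0.1, genes at 0.5 TPM in at least 4 libraries, and pseudocount 1 unfiltered) and leaving out each library. The fit was tested on simulated counts. Promoter windows were read in Python from a RefSeq table.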

Additional observations from a re-analysis of the deposited data

Results flagged for a closer look

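In 18 groups of 4 tumors (9 genes in each genotype), a tumor was listed when its gap to the nearest other value relative to the group's range exceeded Dixon's 95% critical value for 4 samples, which chance does in about 0.9 of 18 groups. There were 3 such values, in different libraries. Lrrn3 was at 0 CPM in ΔAgo2 tumor 3, where 0 counts allow up to 0.0895 CPM. Nefl was at 1.43 CPM in wild-type tumor 4, from 10 counts in the shallowest library, against 0.841 CPM in the next tumor. Dtna was at 7.71 CPM in wild-type tumor 3, against 4.20 CPM in the next. Lrrn3, Gap43 and the summed skeletal muscle markers were highest in the same tumor, whereas Nefm and Pnck were highest in wild-type tumor 4, and Ap3b2 and Fam131b in wild-type tumor 2.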

How the results depend on the processing

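All 7 picked genes kept a log2 fold change below 0 under every alternative in which they could be fitted, which the choice of the genes fixes in part. Ap3b1 kept its direction and stayed uncalled. Nefl was not tested in the thinned libraries or with at least 10 counts in every library. The TPM fits compressed the low genes: Lrrn3 had −1.38 on log2(TPM + 1), where it was not called with or without the filter, and −3.63 on log2(TPM + 0.1). Dtna was not called in the unfiltered TPM fit, and the filter left it out of the others. With at least 10 counts in every library, 2 of the 7 (Ap3b2 and Fam131b) remained in the test. Lrrn3 was not tested in the thinned libraries. In the count fits that tested them the 7 were called, except Gap43 without ΔAgo2 tumor 4.

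Counts of calls moved much more, and the cause was not tested. All calls (higher, lower) numbered 560 (219, 341). They were 983 (515 higher) with no count filter, 2265 (1129, 1136) by DESeq2, 4476 (2393, 2083) by limma voom, 153 (77, 76) on log2(TPM + 1), 107 (41, 66) on log2(TPM + 0.1) and 77 (33, 44) on log2(TPM + 1) with no filter. Relatives called lower were 3, but 6 by DESeq2, 9 by limma voom, 1 with the GC correction and 0 in each of the 3 TPM fits, and relatives called higher were 3 with no filter, 3 by DESeq2 and 5 by limma voom. Neuronal list genes called were 1 higher by DESeq2 and 2 higher and 9 lower by limma voom. Leaving out 1 tumor gave 88 to 1793 calls (20 to 979 higher, 68 to 814 lower), the extremes being without ΔAgo2 tumor 4 and without ΔAgo2 tumor 1, with 0 to 6 relatives lower, 0 to 4 higher, and 0 to 2 neuronal list genes lower.

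Same-numbered tumors deviated from their group means with correlations of −0.24, 0.10, −0.04 and −0.29, which gave no sign that the numbers pair the samples. With 4 libraries per group and very unequal depth, such values cannot exclude a pairing. With the replicate block there were 70 calls (13 higher, 57 lower) and 0 relatives lower, and with the block and the GC correction 311 (124, 187) and 1 relative lower. Among the other genes named, the block ended the calls of Prph, Sntb1, Sgca, Scn9a, Fap, Vwf, Cpeb1, Nol4, Bgn and Casp2, and the unfiltered TPM fit ended those and the calls of Myh2 and Stc1. The ΔAgo2 values of Lrrn3, Nefl and Gap43 rest on few counts (0 to 19, 2 to 9 and 2 to 32 per library), although these libraries include the deepest one. In the shallowest library, wild-type tumor 4, Lrrn3 had 7 counts and Nefl 10.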
